A study of Mus musculus with 6 samples.

Results

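The CXC chemokines are a family of small secreted proteins named for a pair of cysteines that flank another residue near their start. The genes described here are Cxcl1, Cxcl2, Cxcl5, Cxcl9, Cxcl10, Cxcl12, Cxcl13, Cxcl14, Cxcl15 and Cxcl16, which are 10 of the 24061 genes counted in whole mouse lung by bulk RNA sequencing. They were chosen by name from a list of the family's ligands, and all 10 passed the filter on low counts. Of the 6 libraries, 3 were from control lungs of genotype CCSP/- and 3 from lungs of genotype CCSP/TGFalpha, which combine the same CCSP allele with TGFalpha. Doxycycline had been given to both groups for 3 weeks. CCSP stands for club cell secretory protein. Mouse models use its promoter to switch on a doxycycline-dependent transgene in lung epithelium. TGFalpha is a ligand of the epidermal growth factor receptor. The series title names pulmonary fibrosis induced by TGFalpha, and the comparison asks how the lung's CXC chemokine transcripts differed between lungs with and without the TGFalpha transgene under doxycycline. The labels do not say the animals' age, the species of the transgene or whether each library was 1 animal, so each p-value speaks only to the spread among the libraries at hand, which may be technical.

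Library totals ran from 21479006 to 24914322 counts. All 8 lung markers looked at were expressed, among them the surfactant gene Sftpc, the lung transcription factor gene Nkx2-1 and Scgb1a1, the gene of CCSP. Control replicate 1 and TGFalpha replicate 1 stood apart by skeletal muscle transcripts, with 8 muscle genes summing to 1546 and 2617 CPM against 53.4 to 70.2 CPM in the other 4 libraries (CPM, the count relative to the scaled library size). Control replicate 1 and TGFalpha replicate 2 stood apart by macrophage transcripts, with 12 genes summing to 17443 and 15742 CPM against 2532 to 7173 CPM in the other 4. Most of that sum was Chil3, a chitinase-like gene of alveolar macrophages, at 16423 and 14457 CPM in those libraries. Control replicate 3 stood apart by low mesothelial transcripts, such as Msln at 11.4 CPM against 68.1 and 70.6 CPM in the other controls. In bulk tissue, fewer cells of a type and less RNA per cell cannot be told apart.

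The family is divided by function. Members with the residues Glu-Leu-Arg before the cysteines (Cxcl1, Cxcl2, Cxcl5, Cxcl15 and, outside the 10, Cxcl3 and Ppbp) attract neutrophils, mostly through the receptor CXCR2. Cxcl9, Cxcl10 and Cxcl11 are induced by interferon and draw activated T cells through CXCR3. Cxcl12 guides and retains leukocytes and progenitors through CXCR4, Cxcl13 brings B cells into lymphoid follicles through CXCR5, and Cxcl16 is a membrane-anchored ligand of CXCR6. In lung, Cxcl15 (lungkine) is made by epithelium and Cxcl5 by epithelial cells that include alveolar type 2 cells.

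Several genes of the neutrophil and interferon branches, Cxcl1, Cxcl2 and Cxcl10 among them, are known targets of the transcription factor NF-kB. RefSeq promoter windows (GRCm38.p6, 250 bases before to 50 after the start) were found for 8 of the 10 members, all but Cxcl5 and Cxcl16, and for 3 of 5 other CXC ligands, namely Cxcl3, Pf4 and Ppbp. The following stretches, 5′ to 3′ and all upstream of the start, are shown because the first 4 hold the matches to the NF-kB consensus found in these windows, and Cxcl13 was the member that rose most. Capitals mark matches, on either strand, to the NF-kB consensus, to the shared run of bases given next and to TATAAA, and overlapping matches run together.
Cxcl1, chr5:90891135-90891214, + strand: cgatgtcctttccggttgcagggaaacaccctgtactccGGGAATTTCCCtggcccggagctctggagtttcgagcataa
Cxcl2, chr5:90903789-90903868, + strand: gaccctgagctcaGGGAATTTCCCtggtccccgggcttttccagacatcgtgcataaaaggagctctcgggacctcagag
Cxcl3, chr5:90786001-90786080, + strand: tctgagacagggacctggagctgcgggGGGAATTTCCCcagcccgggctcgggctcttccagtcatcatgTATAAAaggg
Cxcl10, chr5:92348970-92349059, - strand: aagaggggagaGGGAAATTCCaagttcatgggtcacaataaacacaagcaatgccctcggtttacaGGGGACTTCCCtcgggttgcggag
Cxcl13, chr5:95956859-95956918, + strand: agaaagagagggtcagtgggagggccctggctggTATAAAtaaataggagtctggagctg

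The longest run of bases shared by the upstream parts of the Cxcl1, Cxcl2 and Cxcl3 windows was GGGAATTTCCC, which holds the NF-kB consensus on both strands. It began 71, 97 and 73 bases upstream of their starts. Of 32841 mouse promoter windows of 300 bases, 14 (0.0426%) hold these letters, on either strand. The run was picked for being shared, so its presence in the Cxcl1, Cxcl2 and Cxcl3 windows was fixed in advance. The broader NF-kB consensus was present in 3 of the 8 members' windows (Cxcl1, Cxcl2 and Cxcl10) and in 8.46% of all windows. No match was found in the windows of Cxcl9, Cxcl12, Cxcl13, Cxcl14 and Cxcl15. TATAAA stood 46 bases upstream of the Cxcl13 start and also occurred for Cxcl9 and Cxcl15, against 13.6% of all windows. A match describes the letters and is no evidence of a bound factor.

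Of the 10 CXC chemokine genes, Cxcl13 and Cxcl14 rose in CCSP/TGFalpha lungs and Cxcl5 fell. These are calls of the quasi-likelihood test of edgeR across 16089 genes at a Benjamini-Hochberg adjusted p under 0.05. Across all genes tested, 5.03% were called higher and 3.29% lower. The groups did not overlap for 5 members, with CCSP/TGFalpha lungs above in 2 (17.7% of all genes) and below in 3 (15.5% of all genes). The median log2 fold change of the members was -0.37, against 0.01 for all genes tested, and 6 of the 10 were negative, against 49.1% of all genes. The plot of levels by library shows members on both sides of the controls.

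**Figure D1:**
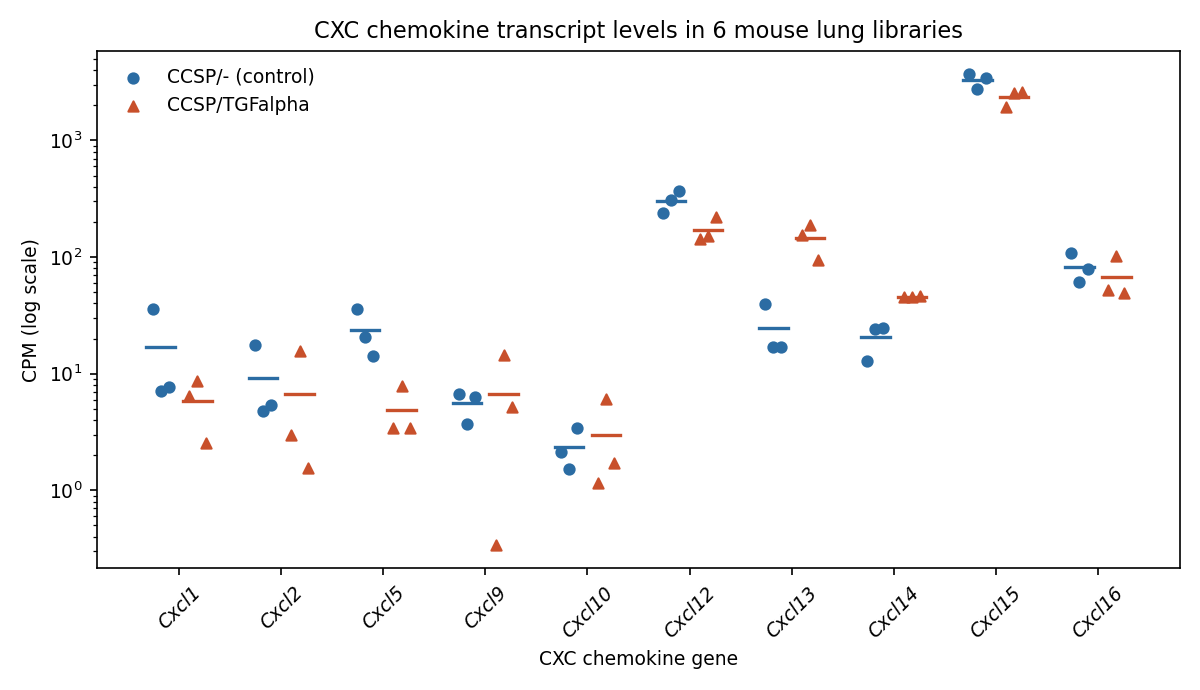
Transcript level of each CXC chemokine gene in CPM (log axis) in the 3 control (circles) and 3 CCSP/TGFalpha (triangles) libraries, with bars at group means. Cxcl13 and Cxcl14 are higher and Cxcl5 is lower in every CCSP/TGFalpha library, while Cxcl1, Cxcl2, Cxcl9, Cxcl10 and Cxcl16 overlap.

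Cxcl13, the B cell attractant of lymphoid follicles, showed the largest difference of the family. Its gene (gene ID 55985; GRCm38, chromosome 5, 95956939 to 95961068) was at 39.6, 17.1 and 16.9 CPM in control replicates 1 to 3 and at 155.5, 186.9 and 93.9 CPM in TGFalpha replicates 1 to 3. Every CCSP/TGFalpha library was above every control library. The mean went from 24.5 ± 13.1 to 145.4 ± 47.3 CPM (SD, n = 3 per group), a 5.93-fold rise (log2 fold change 2.57 ± 0.40 SE, edgeR adjusted p = 0.00994). Leaving out control replicate 2 or 3 ended the call (edgeR adjusted p = 0.059 and 0.0615), where the log2 fold change was 2.37 and 2.35.

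The receptor of Cxcl13 and the B cell genes did not pass the test. Cxcr5, the receptor on follicular B and T cells, was at 4.42, 5.5 and 4.89 CPM in controls and 1.53, 5.02 and 4.61 CPM in CCSP/TGFalpha lungs (log2 fold change -0.41, edgeR adjusted p = 0.578). None of 10 B cell genes passed the edgeR test, DESeq2 or limma-voom, and at an unadjusted p under 0.05 none was higher and 1, Pax5, was lower. Of the 10, 8 had a negative log2 fold change, with a median of -0.49. Their summed level was 137.2 to 159.1 CPM in controls and 78.5 to 169.5 CPM in CCSP/TGFalpha lungs. Among 12 tested genes of lymphoid homing and follicle organisation none rose by edgeR, DESeq2 or limma-voom. At an unadjusted p under 0.05, 1 was higher and 6 were lower. Of the 12, 9 had a negative log2 fold change, with a median of -0.67. By DESeq2 4 fell, by limma-voom 3 and by edgeR 2 (3.29% of all genes tested by edgeR). The 2 that fell by edgeR were Ccl21a, a chemokine of lymphatic endothelium and T cell zones (35.9 ± 8.41 to 16.5 ± 3.84 CPM, edgeR adjusted p = 0.0283), and Tnfsf13b, which encodes the B cell survival factor BAFF (16.9 ± 4.96 to 7.37 ± 1.17 CPM, adjusted p = 0.0309). Madcam1, the addressin of mucosal lymphoid vessels, had 0 counts in all 6 libraries.

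Matrix genes of fibroblasts were also higher in CCSP/TGFalpha lungs, as was a pair of complement genes of macrophages. Of 12 fibroblast genes 6 rose by edgeR, against 5.03% of all genes tested. All 6 were genes of matrix proteins, such as Col1a2, Col3a1 and Fn1. None fell by edgeR, DESeq2 or limma-voom, and 1 was lower at an unadjusted p under 0.05. Of the 12, 4 had a negative log2 fold change. The receptor genes Pdgfra and Pdgfrb had log2 fold changes of 0.29 and -0.04 (edgeR adjusted p = 0.442 and 0.941). The summed level of the 12 was 2116 to 2465 CPM in controls and 7231 to 11794 CPM in CCSP/TGFalpha lungs. Of 12 macrophage and monocyte genes 2 rose, against 5.03% of all genes tested. They were the complement genes C1qa (30.8 ± 8.23 to 128.6 ± 39.6 CPM) and C1qb (27.2 ± 11.2 to 103.3 ± 36.8 CPM). Of these 12, 6 had a negative log2 fold change, and their summed level overlapped between the groups, at 5608 to 17443 CPM in controls and 2532 to 15742 CPM in CCSP/TGFalpha lungs. The part of either cell type in the Cxcl13 result was not tested. Over the 6 libraries, the gene closest to Cxcl13 in its log2 pattern was Fstl1, which encodes a secreted glycoprotein of mesenchyme, with a root mean square difference of 0.06. It stood at 348, 152 and 133 CPM in controls and 1391, 1557 and 813 CPM in CCSP/TGFalpha lungs. Ptger3, a prostaglandin E receptor gene, and Ak4, a mitochondrial adenylate kinase gene, came next, with differences of 0.17 and 0.18.

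Cxcl14, a chemokine of epithelia and stroma whose receptor is not settled, was the other member that rose. Its gene (gene ID 57266; chromosome 13, 56288643 to 56296811) was at 12.8, 24 and 24.6 CPM in controls and 45.3, 45.1 and 46 CPM in CCSP/TGFalpha lungs. The CCSP/TGFalpha libraries were nearly equal, and all of them lay above the controls. The mean went from 20.4 ± 6.65 to 45.4 ± 0.49 CPM, a 2.22-fold rise (log2 fold change 1.15 ± 0.25 SE, edgeR adjusted p = 0.0307). The call was kept when control replicate 1 was left out and was lost without any other single library (edgeR adjusted p between 0.0633 and 0.0903), while the log2 fold change stayed between 0.90 and 1.30. The nearest genes in log2 pattern over the 6 libraries were Bgn, which encodes the matrix proteoglycan biglycan (root mean square difference 0.15), Lrch2 (0.16) and the matrix protease gene Adamts9 (0.17).

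Among the neutrophil attractants, Cxcl5 was the member that passed the test. The gene (gene ID 20311; chromosome 5, 90759298 to 90761625) was at 35.8, 20.7 and 14.2 CPM in controls and at 3.4, 7.89 and 3.44 CPM in CCSP/TGFalpha lungs. The highest CCSP/TGFalpha library was below the lowest control. The mean fell from 23.6 ± 11.1 to 4.91 ± 2.59 CPM, a 4.79-fold difference (log2 fold change -2.26 ± 0.44 SE, edgeR adjusted p = 0.0237). Leaving out control replicate 2, or replicate 1 or 3 of the TGFalpha group, ended the call (edgeR adjusted p = 0.0775, 0.09 and 0.0591), as did leaving out control replicate 1 and TGFalpha replicate 1 together (0.0823), where the log2 fold change was -1.63. The nearest genes in log2 pattern were Ccl22, a chemokine gene of dendritic cells and macrophages, the lipid transporter gene Mfsd2a and Chd5, at root mean square differences of 0.40, 0.41 and 0.43.

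Cxcl1 and Cxcl2, close relatives that recruit neutrophils after injury, varied more within the groups than between them. Cxcl1 (gene ID 14825; chromosome 5, 90891245 to 90893121) was at 35.6, 7.06 and 7.67 CPM in controls and 6.38, 8.68 and 2.56 CPM in CCSP/TGFalpha lungs. Control replicate 1 alone set the high control mean of 16.8 ± 16.3 CPM. The log2 fold change was -1.52 ± 0.68 SE (edgeR adjusted p = 0.196), and it was -0.34 without control replicate 1. Cxcl2 (gene ID 20310; chromosome 5, 90903899 to 90905938) was at 17.5, 4.77 and 5.39 CPM in controls and 2.98, 15.7 and 1.55 CPM in CCSP/TGFalpha lungs. Each group held 1 high library, and the groups overlapped (log2 fold change -0.46 ± 0.83 SE, edgeR adjusted p = 0.758). Its sign turned without control replicate 1 (0.39) and without TGFalpha replicate 3 (0.01).

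Cxcl3, a close relative of these genes outside the 10 members, differed more between libraries than Cxcl1 and Cxcl2. It was at 31.2, 21.7 and 16.1 CPM in controls and 2.3, 70.1 and 2.68 CPM in CCSP/TGFalpha lungs, so that TGFalpha replicate 2 was the highest of all libraries and the other CCSP/TGFalpha libraries were the lowest. The log2 fold change was 0.12 ± 1.1 SE (edgeR adjusted p = 0.955). Without TGFalpha replicate 2 it was -3.20 (edgeR adjusted p = 0.00937), and without control replicate 3 it was -0.09 (0.978).

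Cxcl15 was by far the most abundant member. The gene (gene ID 20309; chromosome 5, 90794534 to 90803067) was at 3694, 2788 and 3430 CPM in controls and 1946, 2536 and 2611 CPM in CCSP/TGFalpha lungs. Each CCSP/TGFalpha library was below every control, with the highest of one group close to the lowest of the other. The log2 fold change was -0.48 ± 0.22 SE and did not pass (edgeR adjusted p = 0.199, 95% interval -0.98 to 0.02). Per kilobase of exon, Cxcl15 made up 90.2 to 92.4% of the summed level of the 10 members in controls and 81.1 to 88.2% in CCSP/TGFalpha lungs. The share of Cxcl13 was 0.84 to 1.79% in controls and 5.87 to 12% in CCSP/TGFalpha lungs. These shares within a library are tied to each other, since a higher Cxcl13 level lowers the rest.

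Ranked by level per kilobase of exon in controls, Cxcl15 (1553.5 ± 219 CPM per kilobase; SD, n = 3) stood apart from the next gene, Cxcl12 (42.6 ± 8.73). Below it came Cxcl16 (30.6 ± 8.71), Cxcl13 (21.3 ± 11.4), Cxcl1 (17.6 ± 17.1), Cxcl5 (15 ± 7.05), Cxcl14 (11.2 ± 3.64) and Cxcl2 (4.96 ± 3.86), and in that order the control libraries of each gene overlapped with those of the next. Cxcl9 (1.92 ± 0.557) and Cxcl10 (1.55 ± 0.642) were lowest, with Cxcl9 below Cxcl2 in every control. In CCSP/TGFalpha lungs Cxcl13 was next after Cxcl15, at 126 ± 41.1 CPM per kilobase, and Cxcl14 was at 24.9 ± 0.268. Cxcl5 was at 3.12 ± 1.64.

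Neutrophil transcripts overlapped between the groups. None of 11 tested neutrophil genes passed by edgeR, DESeq2 or limma-voom, and 1, Camp, was higher at an unadjusted p under 0.05. Their summed level was 123.4 to 185.4 CPM in controls and 104.7 to 203.1 CPM in CCSP/TGFalpha lungs. The granule genes Mpo and Elane were at 8 counts or fewer in every library. Cxcr2, the main receptor of this branch, did not pass (log2 fold change -0.26 ± 0.16 SE, edgeR adjusted p = 0.343). Cxcr1 was at 73.9, 24.9 and 13.1 CPM in controls and 3.44, 34.1 and 2.72 CPM in CCSP/TGFalpha lungs, with the high libraries again control replicate 1 and TGFalpha replicate 2 (log2 fold change -1.48, edgeR adjusted p = 0.367). Alveolar type 2 genes, of cells that make Cxcl5, showed no call among 10 by edgeR or limma-voom, 1 rise by DESeq2 and 1 gene, Napsa, higher at an unadjusted p under 0.05. Their summed level was 14506 to 19123 CPM in controls and 16860 to 18731 CPM in CCSP/TGFalpha lungs.

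Of 15 tested inducers and regulators of the neutrophil branch, 1 rose and 1 fell, against 5.03% and 3.29% of all genes tested. The receptor gene Il1r1 rose from 91.7 ± 10.4 to 330.8 ± 109.9 CPM (edgeR adjusted p = 0.00621). Nfkbia, which encodes the inhibitor IkB-alpha and is itself a target of NF-kB, fell from 114.6 ± 6.61 to 68.2 ± 13.8 CPM (adjusted p = 0.0396). The median log2 fold change of these genes was -0.37. Csf3, the neutrophil growth factor gene, had 0 counts throughout, and Il17a was under the filter with 23, 2 and 7 counts in controls and 4, 52 and 0 counts in CCSP/TGFalpha lungs.

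The neutrophil attractant genes lie side by side. Between Cxcl5 and Cxcl2 on chromosome 5 (90759298 to 90905938, 146641 bases) RefSeq places 7 genes, all of them CXC ligands, in the order Cxcl5, Ppbp, Pf4, Cxcl3, Cxcl15, Cxcl1 and Cxcl2. Of these, 6 had a negative log2 fold change, against 49.1% of all genes tested. By edgeR 2 of them, Cxcl5 and Ppbp, fell, against 3.29% of all genes tested. Ppbp, a platelet chemokine gene, was at 21.3, 49.3 and 41.4 CPM in controls and 15.9, 12.6 and 19.5 CPM in CCSP/TGFalpha lungs, with no overlap (log2 fold change -1.22 ± 0.31 SE, edgeR adjusted p = 0.0491). Its call was kept without control replicate 1 and lost without any other single library (edgeR adjusted p between 0.0672 and 0.173). Pf4, platelet factor 4, was at 8.71, 8.39 and 6.39 CPM in controls and 5.44, 4.89 and 1.97 CPM in CCSP/TGFalpha lungs (log2 fold change -0.93, edgeR adjusted p = 0.163). Among 8 platelet genes 1 rose, Gp1bb, against 5.03% of all genes tested by edgeR. None fell by edgeR, DESeq2 or limma-voom, with 1 lower at an unadjusted p under 0.05. The log2 fold change was negative for 7 of the 8, with a median of -0.49. Their summed level was 10.7 to 21.7 CPM in controls and 14.3 to 20.2 CPM in CCSP/TGFalpha lungs. Without Gp1bb, a sum chosen after its values were seen, it was 7.23, 17.4 and 17.6 CPM in controls and 8.5, 5.96 and 10.2 CPM in CCSP/TGFalpha lungs, and the groups still overlapped. Red cell genes were lower as well, as 4 of 6 fell (3.29% of all genes tested) and all 6 had a negative log2 fold change. The 4 were the globin genes Hba-a1, Hba-a2, Hbb-bs and Hbb-bt. Hba-a1 and Hba-a2 had nearly equal counts in each library, as did Hbb-bs and Hbb-bt, so each pair may not be 2 separate measurements. Alas2 and Slc4a1 did not pass (edgeR adjusted p = 0.0526 and 0.274). The part of platelet or blood content in the Ppbp result was not tested. Cxcl17, a mucosal chemokine gene on chromosome 7, was at 9.31 to 18.3 CPM in controls and 8.63 to 13.4 CPM in CCSP/TGFalpha lungs, and the groups overlapped (log2 fold change -0.28, edgeR adjusted p = 0.596).

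**Figure D2:**
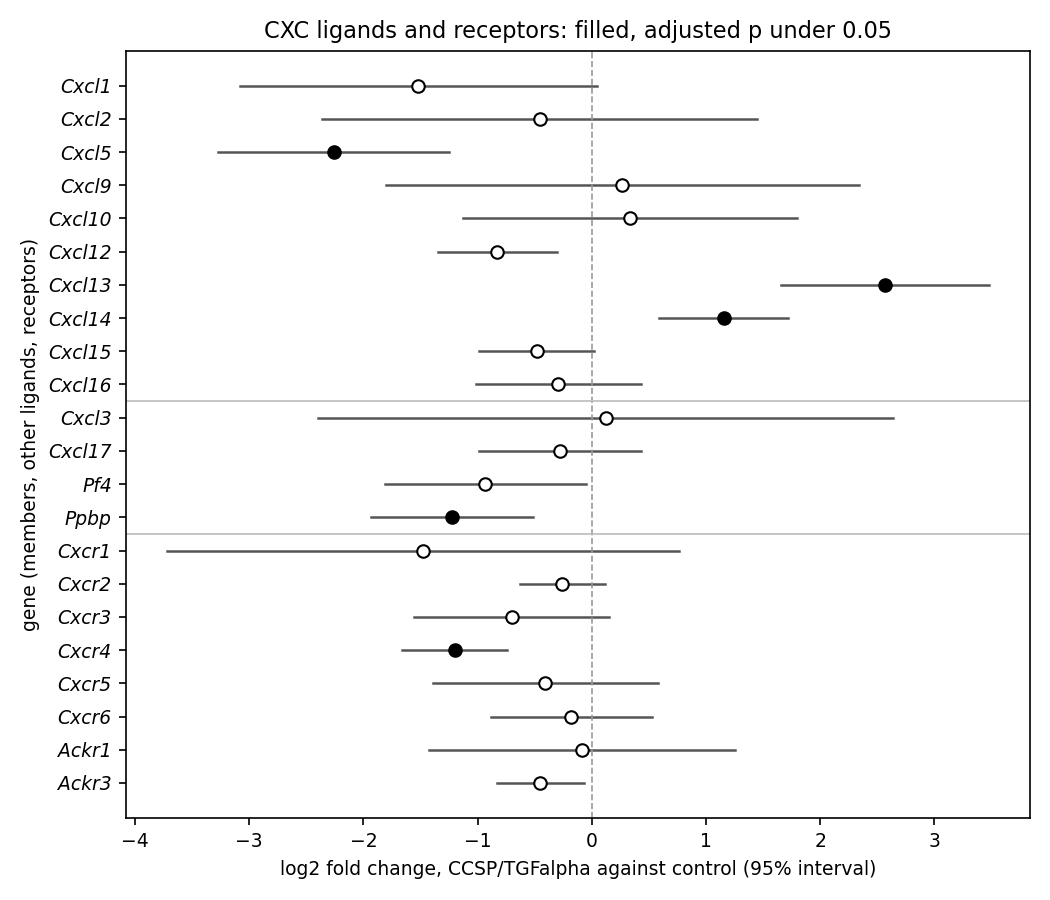
Log2 fold change of CCSP/TGFalpha against control lungs with its 95% interval for the 10 members, 4 other CXC ligands and 8 receptors; filled points passed the edgeR test. Cxcl13 and Cxcl14 lie to the right, Cxcl5, Ppbp and Cxcr4 to the left, and the widest intervals belong to Cxcl3 and Cxcr1.

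The interferon-induced members Cxcl9 and Cxcl10 were low and did not separate the groups. Cxcl9 (gene ID 17329; chromosome 5, 92321331 to 92328079) was at 6.66, 3.71 and 6.3 CPM in controls and at 0.34, 14.6 and 5.15 CPM in CCSP/TGFalpha lungs. The CCSP/TGFalpha group held both the lowest and the highest of the 6 libraries, 8 counts in TGFalpha replicate 1 and 355 counts in TGFalpha replicate 2, which is a 42.9-fold gap within 1 group. The log2 fold change was 0.27 ± 0.91 SE (edgeR adjusted p = 0.874), and it was -1.01 without TGFalpha replicate 2. Cxcl10 (gene ID 15945; chromosome 5, 92346638 to 92348889) was at 2.13, 1.51 and 3.42 CPM in controls and 1.15, 6.04 and 1.72 CPM in CCSP/TGFalpha lungs. TGFalpha replicate 2 was again the highest library (log2 fold change 0.34 ± 0.64 SE, edgeR adjusted p = 0.768), and without it the value was -0.71. Cxcl10 overlaps Art3, and with no strand setting stated the reads of the overlap cannot be assigned. Cxcl11, the third ligand of CXCR3, was under the filter with 7, 8 and 9 counts in controls and 0, 30 and 0 counts in CCSP/TGFalpha lungs.

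Of 18 tested interferon-response genes, 14 had a negative log2 fold change, against 49.1% of all genes tested, and the median was -0.41. None rose by edgeR, DESeq2 or limma-voom or was higher at an unadjusted p under 0.05. By edgeR 1 fell, against 3.29% of all genes tested. That was Rsad2, which encodes the antiviral protein viperin, from 37.3 ± 12.2 to 14.1 ± 6.25 CPM (edgeR adjusted p = 0.044). Cxcr3, the receptor of this branch, was at 4.09, 5.13 and 2.51 CPM in controls and 2.59, 2.84 and 1.8 CPM in CCSP/TGFalpha lungs (log2 fold change -0.70, edgeR adjusted p = 0.268). None of 12 T and NK cell genes passed by edgeR or limma-voom, 2 fell by DESeq2, and at an unadjusted p under 0.05 there were 4 with a lower level, with summed levels of 140.6 to 221.2 CPM in controls and 99.8 to 153 CPM in CCSP/TGFalpha lungs.

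Within the CCSP/TGFalpha group, 1 library was high for most members. TGFalpha replicate 2 had the highest level of the 3 for 7 of the 10 members, all but Cxcl12, Cxcl14 and Cxcl15, and for 33.1% of all genes tested. It exceeded TGFalpha replicate 3 by 10.1-fold for Cxcl2, 3.52-fold for Cxcl10, 3.39-fold for Cxcl1 and 2.83-fold for Cxcl9. It exceeded TGFalpha replicate 1 by 5.27-fold for Cxcl2, 5.27-fold for Cxcl10, only 1.36-fold for Cxcl1 and 42.9-fold for Cxcl9. TGFalpha replicate 2 also had the high Chil3 level given above and the highest CCSP/TGFalpha levels of the cytokine genes Il1a (37.4 CPM against 6.67 and 7.83) and Il1b (55 CPM against 20.8 and 17.6). In controls, replicate 1 was the highest for 7 of the 10 members and for 34.9% of all genes tested. The part of macrophage content in these spreads was not tested.

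**Figure D3:**
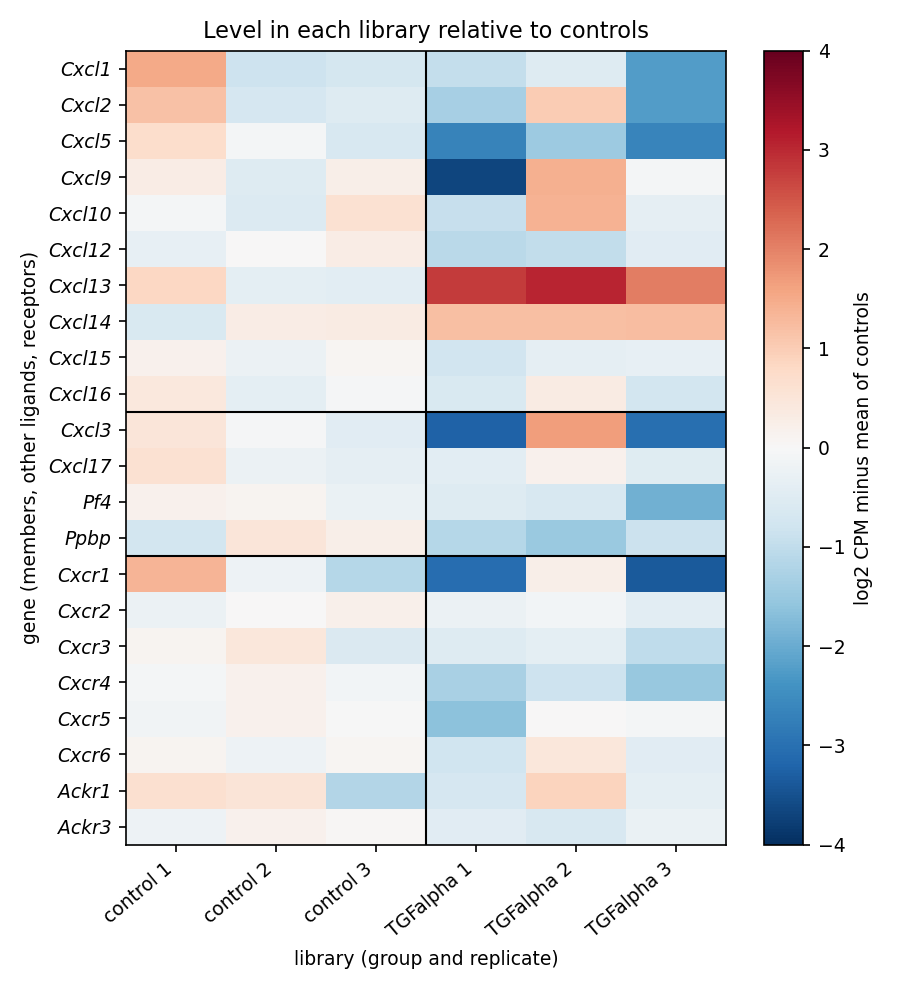
Log2 CPM of each gene in each library minus the mean of the controls, for members (top), other CXC ligands (middle) and receptors (bottom). Cxcl13 and Cxcl14 are raised in all 3 CCSP/TGFalpha libraries, whereas Cxcl2, Cxcl3, Cxcl9 and Cxcl10 are high in TGFalpha replicate 2 and lower in replicates 1 and 3.

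Cxcl12, which guides stem cells, leukocytes and endothelium, and its receptor gene Cxcr4 were both lower, and the receptor passed the test. Cxcl12 (gene ID 20315; chromosome 6, 117168535 to 117181368) was at 241.1, 306.9 and 366.1 CPM in controls and 142.5, 150.8 and 221.7 CPM in CCSP/TGFalpha lungs. The groups did not overlap, and the difference missed the threshold (log2 fold change -0.83 ± 0.23 SE, edgeR adjusted p = 0.0611, 95% interval -1.35 to -0.31). It was called by DESeq2 (adjusted p = 0.00446) and by edgeR without control replicate 1 (0.0471) or TGFalpha replicate 3 (0.0379). Cxcr4 (gene ID 12767; chromosome 1, 128588199 to 128592299) was at 87.4, 103.8 and 84 CPM in controls and 36.7, 51 and 32.1 CPM in CCSP/TGFalpha lungs. It fell 2.3-fold, with no overlap (log2 fold change -1.20 ± 0.20 SE, edgeR adjusted p = 0.0143). Leaving out control replicate 2 or 3 or TGFalpha replicate 1 ended the Cxcr4 call (edgeR adjusted p = 0.0651, 0.0549 and 0.0549), as did leaving out control replicate 1 and TGFalpha replicate 1 together (0.0574).

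Ackr3, the scavenging receptor of Cxcl12, was at 66.3, 87.5 and 78.9 CPM in controls and 56.4, 49.7 and 64.2 CPM in CCSP/TGFalpha lungs (log2 fold change -0.45 ± 0.17 SE, edgeR adjusted p = 0.129). Dpp4, whose protease trims and inactivates Cxcl12 and other chemokines, fell from 174.1 ± 14.1 to 96.1 ± 28.9 CPM (edgeR adjusted p = 0.0475). Endothelial genes were lower as well. By edgeR 5 of 10 fell, against 3.29% of all genes tested, and all 10 had a negative log2 fold change, against 49.1%. Their summed level was 2121 to 3809 CPM in controls and 1088 to 1964 CPM in CCSP/TGFalpha lungs, and their part in the Cxcl12 and Cxcr4 results was not tested.

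Cxcl16, the membrane-anchored ligand that sheddases release, overlapped between the groups. The gene (gene ID 66102; chromosome 11, 70454389 to 70459984) was at 107.9, 61.4 and 78.4 CPM in controls and 52.1, 101.4 and 48.8 CPM in CCSP/TGFalpha lungs, with a high library in each group (log2 fold change -0.29 ± 0.32 SE, edgeR adjusted p = 0.586). It overlaps Zmynd15, so reads there cannot be assigned without a strand setting. Cxcr6, its receptor on T cells, was at 14.9 to 18.2 CPM in controls and 9.69 to 23.1 CPM in CCSP/TGFalpha lungs (log2 fold change -0.18, edgeR adjusted p = 0.74). The sheddase genes Adam10 and Adam17 had log2 fold changes of 0.06 and -0.05 (edgeR adjusted p = 0.819 and 0.912).

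Of the 8 receptor genes, 1 fell, against 3.29% of all genes tested. None rose by edgeR, DESeq2 or limma-voom or was higher at an unadjusted p under 0.05. All 8 had a negative log2 fold change, against 49.1% of all genes, with a median of -0.43 against 0.01. With 1 library left out, the sign turned in some fits for Ackr1 (range -0.74 to 0.21) and Cxcr6 (-0.63 to 0.06). Ackr1, the erythrocyte and venule receptor that binds many chemokines, was at 1.19 to 4.38 CPM in controls and 1.7 to 5.14 CPM in CCSP/TGFalpha lungs (log2 fold change -0.09, edgeR adjusted p = 0.938). Among 9 genes of proteases that process or shed CXC chemokines, 3 rose and 1 fell, against 5.03% and 3.29% of all genes tested. The 3 were the matrix metalloproteinase genes Mmp2 (106.3 ± 9.82 to 345.9 ± 51.1 CPM, edgeR adjusted p = 0.0019) and Mmp14 (68.8 ± 4.02 to 299.2 ± 117.6 CPM, 0.00481), whose products can cleave Cxcl12, and Fap (2.05 ± 0.98 to 6.93 ± 1.88 CPM, 0.043), a protease gene of activated fibroblasts. Transcripts say nothing of how much chemokine was cleaved.

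The calls changed when single libraries were left out, as the plot of adjusted p with libraries left out shows. With 1 library left out, between 0 and 2 members rose and between 0 and 2 fell. By edgeR, leaving out control replicate 2 or 3 left no member that rose, and none fell without control replicate 2 or TGFalpha replicate 1. The calls over all genes dropped in the same fits. Genes higher went from 810 to 264 and 204 without control replicate 2 or 3. Genes lower went from 530 to 43 and 94 without control replicate 2 or TGFalpha replicate 1. The sign of Cxcl5, Cxcl12, Cxcl13, Cxcl14 and Cxcr4 was the same in all 6 fits with 1 library left out.

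**Figure D4:**
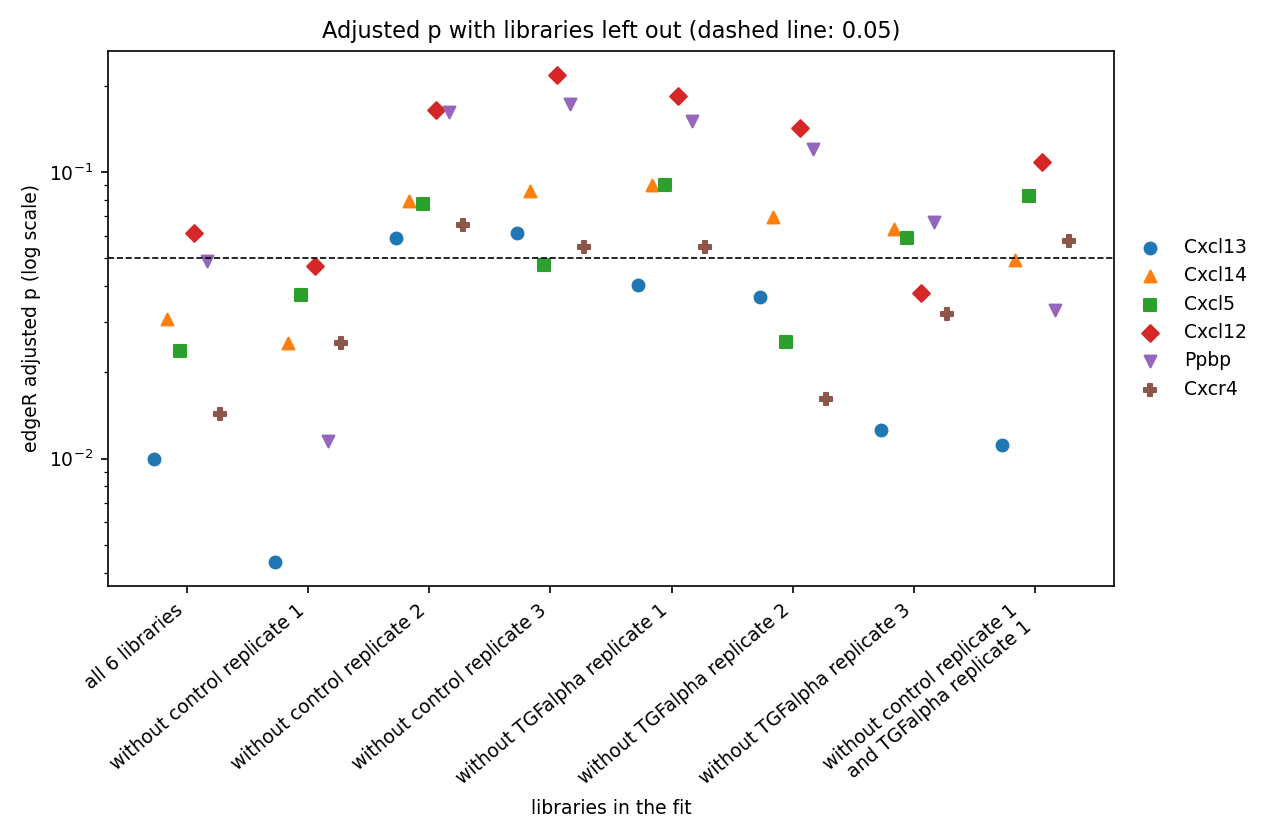
Adjusted p of the edgeR test (log axis) for Cxcl13, Cxcl14, Cxcl5, Cxcl12, Ppbp and Cxcr4 with all 6 libraries and with libraries left out; the dashed line is 0.05. Cxcl13 crosses the line without control replicate 2 or 3, while Cxcl14 is below it with 1 library left out only without control replicate 1.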

How the data were processed

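The table the authors deposited holds raw counts, whole numbers for 24061 gene identifiers in 6 lung libraries. Per the submitters' processing notes, bcl2fastq, CASAVA 1.8, TopHat and DESeq were used with mouse build mm10. The counter, strand setting and annotation are not stated there. Column names are the samples' description labels, and groups came from the titles. Identifiers were paired with symbols through RefSeq genes on GRCm38.p6, the build of mm10, which left 85 unnamed (1.73 to 3.8% of counts per library, kept in totals and tests).

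Counts were tested with the quasi-likelihood test of edgeR 4.0.16 (R 4.3.3; TMM scaling, expression filter by group, model of group only) over 16089 genes, with Benjamini-Hochberg adjustment and a threshold of 0.05. Means are given with the SD over 3 libraries. Levels per kilobase used the union of exons in the GENCODE M21 basic set. Log2 patterns used a prior count of 2. Alternatives were other scalings and filters, DESeq2 1.42.0, limma-voom (limma 3.58.1), a replicate block and left-out libraries. The fits were checked on simulated counts. No 2 libraries of a group agreed within sampling noise.

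The members and gene lists were chosen with earlier results of these data known. Named are all members, other CXC ligands and receptors, and the 3 genes nearest in log2 pattern to each called member. The rule also took up to 3 called genes of each other list (or the 1 with the smallest p). Those of the endothelial, T and NK cell and skeletal muscle lists, and Hopx of the lung markers, are not described above. Genes named beyond this rule, such as Chil3, Il1a, Il1b, Csf3, Il17a, Mpo, Elane, Madcam1, Adam10, Adam17, Dpp4, Pdgfra, Pdgfrb, Alas2, Slc4a1, Hbb-bt, Sftpc, Nkx2-1 and Msln, were picked after their values were seen. The promoter stretches and the run of bases shared by 3 of them were picked after the sequences were seen.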

Additional observations from a re-analysis of the deposited data

How the results depend on the processing

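With 1 library left out, genes higher numbered 204 to 606 (810 with all 6), genes lower 34 to 482 (530), members higher 0 to 2 (2), members lower 0 to 2 (1) and receptors called 0 to 1 (1). By DESeq2, 1281 genes were higher, 1225 lower and 2 members lower, Cxcl5 and Cxcl12. An alternative chosen after seeing the data left out control replicate 1 and TGFalpha replicate 1 together, and gave 307 genes higher, 166 lower, no member lower and no receptor by edgeR. In that fit the log2 fold change was 0.75 for Cxcl2, 0.09 for Cxcl16, 0.18 for Cxcl17, 0.10 for Cxcr6 and 0.49 for Ackr1, all reversed and none called, and 0.97 for Cxcl9 and 0.93 for Cxcl3.

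With the replicate number as a block, 2 members were lower, since Cxcl12 passed (adjusted p = 0.0251), and the log2 fold change turned to -0.49 for Cxcl9 and -1.66 for Cxcl3. The numbers do not pair the samples by any label, and the deviations of same-numbered libraries correlated at 0.42, -0.05 and 0.22. Limma-voom gave -0.83 for Cxcl9 and -1.54 for Cxcl3. Left-out libraries turned the sign of genes that were not called, with ranges of -2.02 to 0.39 for Cxcl2, -1.01 to 0.83 for Cxcl9, -0.71 to 0.72 for Cxcl10, -3.20 to 0.66 for Cxcl3, -0.51 to 0.08 for Cxcl17, -0.63 to 0.06 for Cxcr6 and -0.74 to 0.21 for Ackr1. The cause was not tested. Across these genes and settings, 282 of 329 values kept their sign and side of the threshold. Most of the 329 were values of genes that were not called with all 6 libraries. In 22 values a call was lost, all of them for the called genes Cxcl5, Cxcl13, Cxcl14, Ppbp and Cxcr4. Scaling by library totals left the median of all genes at 0.01 and ended the call of Ppbp (adjusted p = 0.0501), as did limma-voom (0.0645). Cxcl15 has no value without the 20 most abundant genes, being one of them. Cxcl9 and Cxcl10 had 8 to 355 counts per library, so counting error is part of their spread.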

Other observations

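Of 9 tested genes of dendritic cells, which carry several of the receptors above, 3 fell and 1 rose by edgeR. Of all genes tested, 3.29% fell and 5.03% rose. Clec9a, a marker of cross-presenting dendritic cells, fell from 53.1 ± 16.6 to 16.7 ± 5.93 CPM (SD, n = 3 per group; edgeR adjusted p = 0.0227), and Ccl22 fell from 18.9 ± 3.56 to 5.69 ± 3.6 CPM (0.0421). Fscn1, an actin-bundling gene of mature dendritic cells and also of other migrating cells, rose from 23.8 ± 6.29 to 62.6 ± 20.3 CPM (0.0298).

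Club cell genes, from which the CCSP promoter is taken, were divided, with 2 of 9 lower and 1 higher (3.29% and 5.03% of all genes tested). Scgb1a1 fell from 4736 ± 1892 to 1895 ± 312.8 CPM (edgeR adjusted p = 0.0491), Gabrp fell from 112.3 ± 3.55 to 61.5 ± 15.6 CPM (0.034) and Bpifa1 rose from 50.5 ± 44.3 to 436 ± 275.3 CPM (0.0344). Of 7 tested mesothelial genes 1 rose, Wt1 (8.22 ± 6.54 to 119.9 ± 30.9 CPM, edgeR adjusted p = 0.0274), and 1 fell, Krt19 (194.5 ± 8.3 to 124.9 ± 22.3 CPM, 0.0499), against 5.03% and 3.29% of all genes tested. Control replicate 3 had the lowest level of all 6 libraries for 6 of these genes, with Wt1 at 0.73 CPM against 11.2 and 12.7 CPM in the other controls. Krt19 did not share this low level, at 190.5 CPM against 189 and 204.1 CPM in the other controls. Without control replicate 3, the log2 fold change was 3.32 for Wt1 (edgeR adjusted p = 0.00981) and -0.66 for Krt19, which no longer passed (0.164).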
